A study of Mus musculus with 74 samples.

Results

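The 42 collagen genes measured on the arrays were followed through every tissue, agent and day of the study. They were chosen by symbol alone, as the genes with 1 gene symbol per probe set whose name reads Col, a type number, a and a chain number, and each gene was represented by its brightest probe set over all arrays. They made up 42 of the 18193 genes with a single-symbol probe set. Of the 42, 15 lay above the median gene's mean signal and 27 lay below it, and no filter on low values was applied, so all 42 were tested in every comparison.

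The study exposed male B6C3F1 mice, a hybrid strain used in carcinogenicity testing, to 3 agents that give vascular tumours in mice, and measured mRNA on 74 arrays in 16 groups. White fat came from mice fed fenretinide, a synthetic retinoid, in the diet at 500 mg/kg, with 4 fenretinide and 4 vehicle mice sampled on day 29, and 3 and 3 on day 15. Brown fat and liver came from mice given troglitazone, a PPARgamma agonist, by the oral route at 1200 mg/kg, and liver also came from mice given Elmiron (pentosan polysulfate) orally at 1000 mg/kg, with 5 treated and 5 vehicle mice per tissue, agent and day on days 29 and 15. The doses were above the highest ones used in the carcinogenicity studies, per the labels, and the mice carried no engineered allele. The labels used here state neither the ages nor the white fat depot. Values are log2 signal intensities, which compare samples for 1 gene and do not compare different genes.

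Collagens are trimeric proteins whose chains wind into a triple helix. Fibrillar collagens (types I, III and V among them) build the load-bearing fibres, type VI forms beaded microfilaments close to cell surfaces, and type IV forms the sheet of the basement membrane that surrounds each adipocyte and underlies endothelium. Adipose tissue holds all of these, and the fibres and the type VI filaments are made largely by fibroblasts and adipocyte progenitors, with type VI also made by adipocytes. In bulk tissue, fewer cells of a type and less RNA per cell cannot be told apart.

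Several libraries stood apart by marker genes of other tissues, so results that rest on them are given with and without them. In brown fat, the libraries labelled troglitazone mouse 95 and vehicle mouse 82, both of day 29, had Ucp1 (the brown adipocyte uncoupling protein) at 8.10 and 5.91, against 14.91 to 15.11 in the other 18. The same pair had Lep (leptin) at 13.21 and 12.27, against 6.55 to 9.41 in the other 18. Alb (albumin) was at 10.40 in mouse 95 and 14.61 in mouse 82, against 6.32 to 10.56 in the other 18. The hepatocyte and epithelial marker lists averaged 12.68 and 9.51 in mouse 82, against at most 6.90 and 6.24 in the rest of its group. In white fat, fenretinide mice 93 and 95 and vehicle mice 85 and 86 of day 29 had the highest means of a brown adipocyte, skeletal muscle or hepatocyte marker list, from 10.81 to 11.98 for the highest of the 3 lists. Fenretinide mouse 91 of day 29 came next, with brown adipocyte markers at 9.48 and skeletal muscle markers at 9.60, and it stays in the comparisons without those 4. Ucp1 was at 14.66 and 7.56 in fenretinide mice 93 and 95 and 13.44 and 11.69 in vehicle mice 85 and 86. Alb was at 12.22 and 13.99 in these fenretinide mice and 11.60 and 13.93 in these vehicle mice. Adipoq (adiponectin) was at 14.77 to 14.99 in all white fat libraries, and Alb was at 15.08 to 15.21 in all livers. In liver, Adipoq reached 8.09 (median 5.30) and Ucp1 reached 9.64 (median 6.09). The white and brown adipocyte lists were highest among livers in the Elmiron group of day 29, reaching 7.64 and 9.17. No liver was counted among the odd libraries. Arrays of a group correlated at r = 0.9241 to 0.9958 over genes, and no 2 arrays were identical.

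Across the 16 groups, the collagens that make the bulk of connective tissue followed tissue far more than agent or day. The difference between the highest and lowest group mean was above 2 log2 units for 16 of the 42 collagens (38.1%), against 17.3% of all genes, and it was at most 1 log2 unit for 20 collagens (47.6%), against 55.3% of all genes. The widest range was that of Col1a1, a chain of type I collagen, at 5.68 log2 units, and the narrowest that of Col24a1, a minor fibrillar collagen, at 0.43. Col6a2, Col6a1 and Col4a1, which encode chains of types VI and IV, spanned 5.44, 5.36 and 5.36 log2 units, and Col3a1, the single chain of type III, spanned 5.13. In vehicle mice, white fat held the highest mean for 20 collagens, brown fat for 5 and liver for 17. The shares over all genes were not counted, and some orders were close. Among the collagens highest in liver, only Col18a1 lay above the median gene's mean signal. The others were dim, such as Col24a1 at 3.67 in liver, 3.57 in brown fat and 3.42 in white fat. Dim genes were also among those highest in fat, such as Col6a5 in white fat and Col4a3 in brown fat. The counts therefore do not rank the tissues by collagen expression. Col12a1 averaged 7.33 in liver and 7.28 in brown fat. Col20a1 averaged 7.58 in liver and 7.56 in brown fat, or 7.63 in brown fat without mouse 82.

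**Figure D1:**
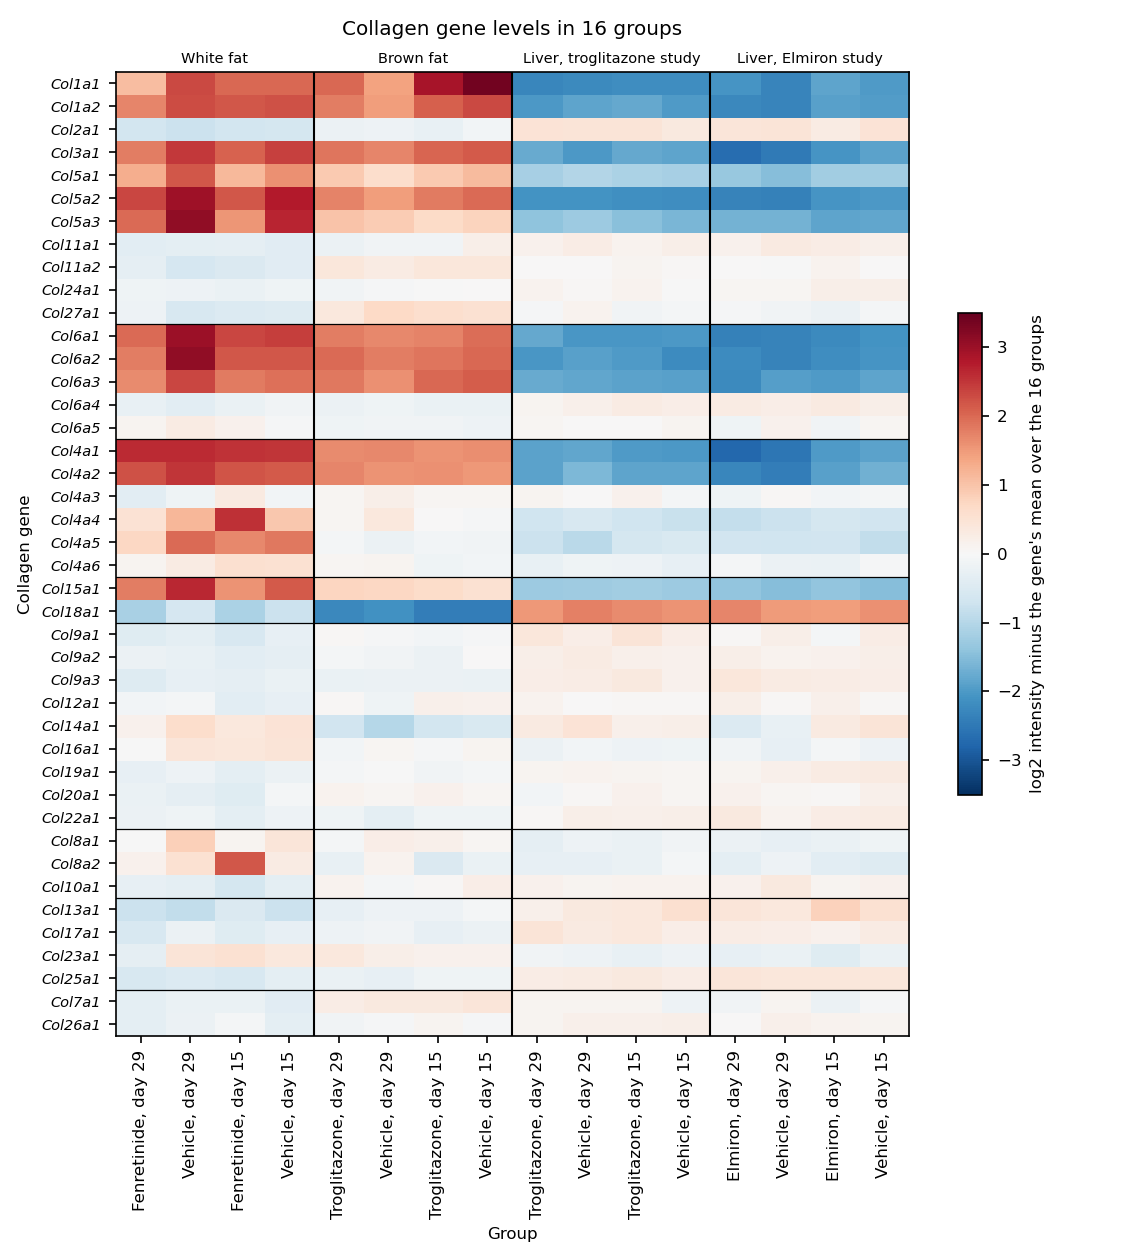
Heat map of the 42 collagen genes (rows, grouped by class) in the 16 groups (columns). Colour gives the group mean of log2 intensity minus the gene's mean over the 16 groups. The chains of types I, III and V, Col6a1, Col6a2, Col6a3, Col4a1 and Col4a2 stand high in both fats and low in liver, and Col18a1 is highest in liver, with the whole range of Col1a1 at 5.68 log2 units.

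The named marker chains matched connective tissue of fat in these arrays. Col6a1 averaged 12.34 ± 0.31 in vehicle white fat (SD, n = 7), 11.41 ± 0.49 in vehicle brown fat (n = 10) and 7.48 ± 0.31 in vehicle liver (n = 20). Col6a2 averaged 13.00 ± 0.52, 12.21 ± 0.45 and 8.18 ± 0.24 in the same order of tissues. Col3a1 averaged 14.20 ± 0.18 in white fat, 13.69 ± 0.42 in brown fat and 9.71 ± 0.35 in liver. The means of both fats lay closer to each other than to liver for each of the 3 genes, and the order of the fats was not tested, because tissue and study cannot be told apart there. Col18a1, whose C-terminal fragment is the angiogenesis inhibitor endostatin, averaged 10.62 ± 0.24 in white fat, 9.0 ± 0.67 in brown fat and 12.89 ± 0.18 in liver, the highest tissue for this gene.

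Brown fat and liver of the troglitazone study's vehicle mice could be tested in 1 fit, and 32 of the 42 collagens differed at an adjusted p under 0.05 (limma), 19 higher and 13 lower in brown fat. The background was large: 76.1% of all genes passed this threshold, or were called, 31.6% higher and 44.5% lower. Col1a1 ran from 8.87 through a median of 11.57 to 13.55 in brown fat, against 6.31, 6.56 and 6.77 in liver (lowest, median and highest of 10 mice each), and the ranges did not overlap. It was 24-fold higher in brown fat, a difference of 4.59 ± 0.22 log2 units (SE, adjusted p = 2.67e-20). Col3a1 ran from 12.92 through 13.89 to 14.30 in brown fat, against 9.40, 9.86 and 10.08 in liver. Its difference was 3.87 ± 0.12 log2 units, or 14.6-fold.

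The type VI and type IV chains were also set apart by tissue. Col6a1 ran from 10.61 through 11.50 to 12.43 in brown fat, against 7.11, 7.58 and 8.01 in liver, and was 14.3-fold higher. Col6a2 was 15.6-fold higher, with 11.61, 12.27 and 13.23 in brown fat, against 7.91, 8.26 and 8.67 in liver. Col4a1, a chain of the general basement membrane network, was 11.8-fold higher, with 12.59, 12.71 and 13.61 in brown fat, against 8.71, 9.24 and 9.78 in liver. No brown fat library reached down to a liver library for any of these 3 genes. By class, 7 of 11 fibrillar collagens were higher and 1 was lower, 3 of 5 type VI chains were higher and 2 lower, and 4 of 6 type IV chains were higher and none lower.

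The multiplexins, a pair of collagens of the basement membrane zone, split in direction. Col15a1 ran from 8.94 through 9.22 to 10.81 in brown fat, against 7.33, 7.56 and 7.83 in liver, and was 3.69-fold higher (adjusted p = 5.05e-11, limma). Col18a1 ran from 8.50 through 8.79 to 10.80 in brown fat, against 12.73, 12.90 and 13.22 in liver, and was 15.4-fold lower (adjusted p = 7.16e-20, limma). For both genes the highest brown fat value was that of vehicle mouse 82, without which it was 9.57 for Col15a1 and 9.20 for Col18a1. Of the 9 fibril-associated collagens with interrupted helices, 1 was higher and 5 were lower in brown fat. Col14a1, a member of that class found at fibril surfaces, ran from 7.41 through 8.56 to 9.74 in brown fat, against 9.26, 9.55 and 10.17 in liver. Its ranges overlapped only through vehicle mouse 82, without which the highest brown fat value was 9.08. Col14a1 was lower in brown fat by a log2 difference of -1.10 ± 0.18. Without the odd brown fat libraries, 32 collagens were again called, against 77.9% of all genes, 32.8% higher and 45.1% lower.

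**Figure D2:**
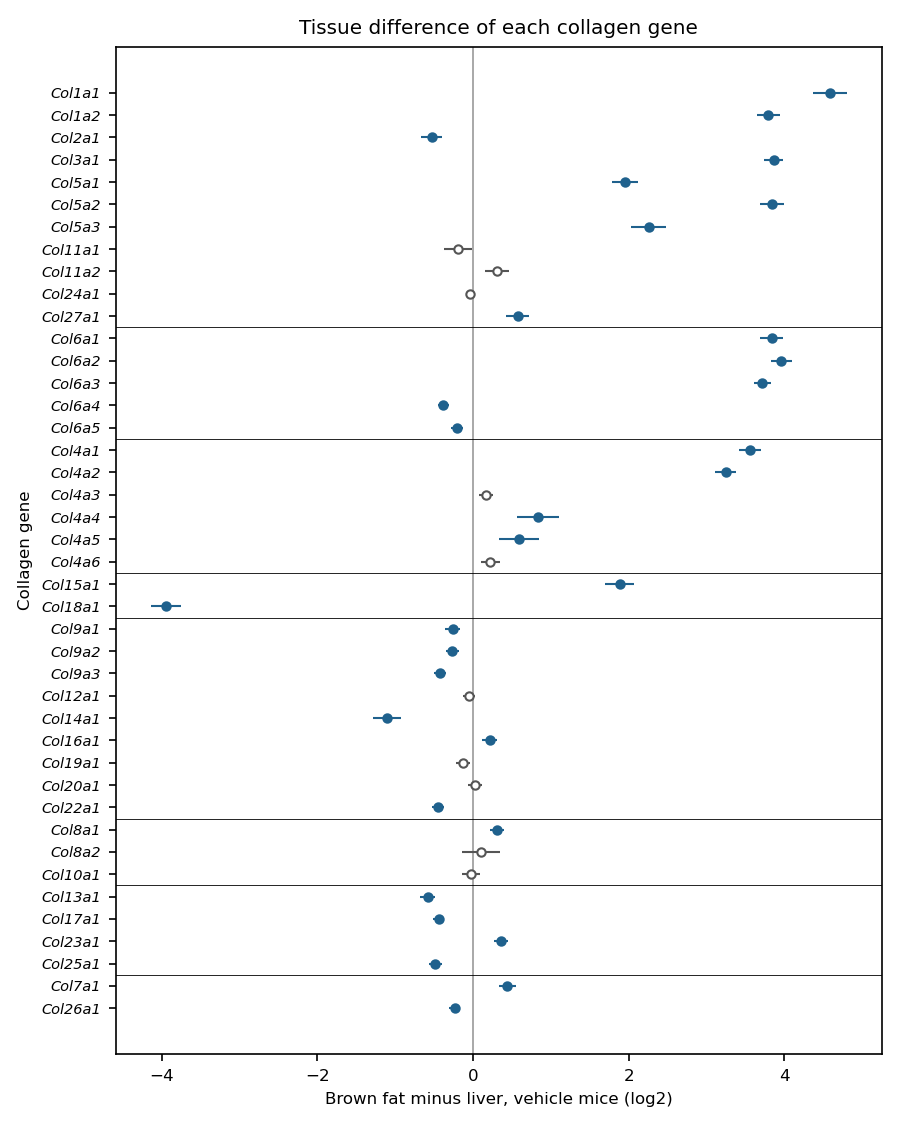
Brown fat minus liver in vehicle mice of the troglitazone study for each collagen (log2 difference; bars are 1 SE, 10 mice per tissue; filled points have an adjusted p under 0.05). Most types I, III, V, VI and IV chains lie to the right, with Col1a1 at 4.59, and Col18a1 lies alone at the left at -3.95.

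In white fat on day 29, 5 of the 42 collagens were lower after fenretinide at an adjusted p under 0.05 (limma) and none was higher. Among all genes, 1.34% were called and 0.929% were called lower. The 5 were Col6a1 and Col6a2, chains of type VI, Col3a1, the chain of type III, and Col5a1 and Col5a2, chains of type V, which joins type I fibrils and limits their width. The median change over the collagens was -0.20 log2 units, against -0.02 over all genes, and 33 of the 42 were below 0. In 16 collagens every fenretinide mouse lay below every vehicle mouse, as in 5.62% of all genes, and in none did every fenretinide mouse lie above.

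The promoters of Col6a1, Col6a2 and Col3a1 are shown because these 3 genes had the lowest adjusted p-values among the fenretinide changes of collagens in this tissue. Each is the run of 250 bases before the start site on the gene's own strand, from RefSeq on GRCm38.p6, at chr10:76726045-76726294 (minus strand), chr10:76623631-76623880 (minus strand) and chr1:45311288-45311537 (plus strand) in that order. Capitals mark matches to 4 motifs searched on both strands: the TATA box (TATAAA), the CCAAT box (spelled CCAAT), the GC box (GGGCGG) and the nuclear receptor site motif (AGGTCA).
Col6a1: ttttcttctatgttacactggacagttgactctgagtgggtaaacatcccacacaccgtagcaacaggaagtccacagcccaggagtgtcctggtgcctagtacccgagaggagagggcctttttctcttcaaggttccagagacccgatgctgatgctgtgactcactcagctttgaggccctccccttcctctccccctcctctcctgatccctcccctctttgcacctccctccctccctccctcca
Col6a2: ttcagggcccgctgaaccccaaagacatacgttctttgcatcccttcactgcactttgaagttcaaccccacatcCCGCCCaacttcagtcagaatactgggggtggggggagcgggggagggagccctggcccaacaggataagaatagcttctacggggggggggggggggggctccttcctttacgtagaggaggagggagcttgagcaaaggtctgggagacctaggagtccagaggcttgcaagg
Col3a1: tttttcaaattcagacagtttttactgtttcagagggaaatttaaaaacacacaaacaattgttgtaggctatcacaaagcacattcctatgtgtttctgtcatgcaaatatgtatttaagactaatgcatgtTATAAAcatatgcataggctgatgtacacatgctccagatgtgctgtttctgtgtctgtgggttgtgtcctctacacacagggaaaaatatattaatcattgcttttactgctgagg
The Col6a1 window held none of the 4 motifs. The Col6a2 window held the GC box once, on the opposite strand and beginning 175 bases before the start. The Col3a1 window held the TATA box once, beginning 117 bases before the start, and no motif overlapped another. Over the 32851 mouse promoter windows of this length, the TATA box stood in 12.4%, the CCAAT box in 33.8%, the GC box in 32.7% and the nuclear receptor motif in 14%. Promoter windows were matched for 33 of the 42 collagens, and among them the TATA box stood in 5, the CCAAT box in 12, the GC box in 20 and the nuclear receptor motif in 8. For each collagen 1 window was kept, whereas the shares above are over all windows, where a gene can have several. The counts and the shares are therefore not like for like, and no enrichment was tested. Col6a1 and Col6a2 are neighbouring protein-coding genes on chromosome 10 in the RefSeq annotation, as are Col3a1 and Col5a2 on chromosome 1.

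The chains of Col6a1, Col6a2 and Col6a3 assemble together into the common form of type VI collagen. Col6a1 was at 11.78, 11.62, 11.37 and 11.53 in the fenretinide mice of day 29, against 12.53, 12.58, 12.48 and 12.71 in the vehicle mice. The groups lay well apart, and Col6a1 fell by 1.0 ± 0.10 log2 units (SE), 2.0-fold lower, with an adjusted p of 9.13e-04 (limma). Col6a2 was at 12.47, 12.21, 11.54 and 12.21 in fenretinide mice, against 13.30, 13.41, 13.27 and 13.61 in vehicle mice. The groups again did not overlap, fenretinide mouse 94 was the lowest of the 8, and Col6a2 fell by 1.29 ± 0.18 log2 units, 2.44-fold lower (adjusted p = 0.00760). The other Col6a2 probe set moved by -0.98. Col6a3, whose C-terminal fragment is the adipose signal endotrophin, was at 12.12, 11.87, 11.17 and 11.85 in fenretinide mice, against 12.16, 12.48, 12.63 and 12.49 in vehicle mice. Its groups met without overlapping, and its difference of -0.69 ± 0.17 missed the threshold (adjusted p = 0.0669).

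Type III and type V collagens, which share fibrils with type I, were also lower. Col3a1 was at 13.58, 13.70, 13.36 and 13.57 in fenretinide mice, against 14.37, 14.26, 14.38 and 13.89 in vehicle mice. Vehicle mouse 86 was the nearest to the fenretinide mice, and Col3a1 fell by 0.67 ± 0.12 log2 units, 1.59-fold lower (adjusted p = 0.0210, limma). Col5a1 was at 10.31, 10.03, 9.40 and 10.05 in fenretinide mice, against 10.84, 11.07, 10.84 and 10.69 in vehicle mice, and fell by 0.91 ± 0.19 (adjusted p = 0.0418). Col5a2 was at 11.84, 11.69, 11.30 and 11.61 in fenretinide mice, against 12.49, 12.30, 12.22 and 11.94 in vehicle mice, and fell by 0.63 ± 0.13 (adjusted p = 0.0402). Neither type V chain overlapped between the groups. The dimmer probe sets moved the same way, by -1.66 for Col3a1, -0.78 and -0.56 for Col5a1 and -1.14 for Col5a2.

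The type I chains, the most used fibre collagen, did not pass. Col1a1 was at 10.00, 10.53, 8.90 and 9.96 in fenretinide mice, against 10.99, 10.70, 11.97 and 10.66 in vehicle mice, a difference of -1.23 ± 0.33 (adjusted p = 0.0881, limma). Its groups did not overlap, but they spread widely, with fenretinide mouse 94 the lowest and vehicle mouse 85 the highest. Col1a2 was at 12.73, 12.99, 12.49 and 12.78 in fenretinide mice, against 13.70, 13.50, 13.35 and 12.73 in vehicle mice, where mouse 86 lay among the fenretinide values (difference -0.58 ± 0.18, adjusted p = 0.130). The third type V chain, Col5a3, was at 11.85, 11.57, 11.30 and 12.31 in fenretinide mice, against 12.54, 12.78, 13.06 and 13.10 in vehicle mice (difference -1.11 ± 0.27, adjusted p = 0.0658). Its brightest and its other probe set disagreed in size, the other being at -0.11. Over the 11 fibrillar collagens the median change was -0.58, and 3 were called, all lower.

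**Figure D3:**
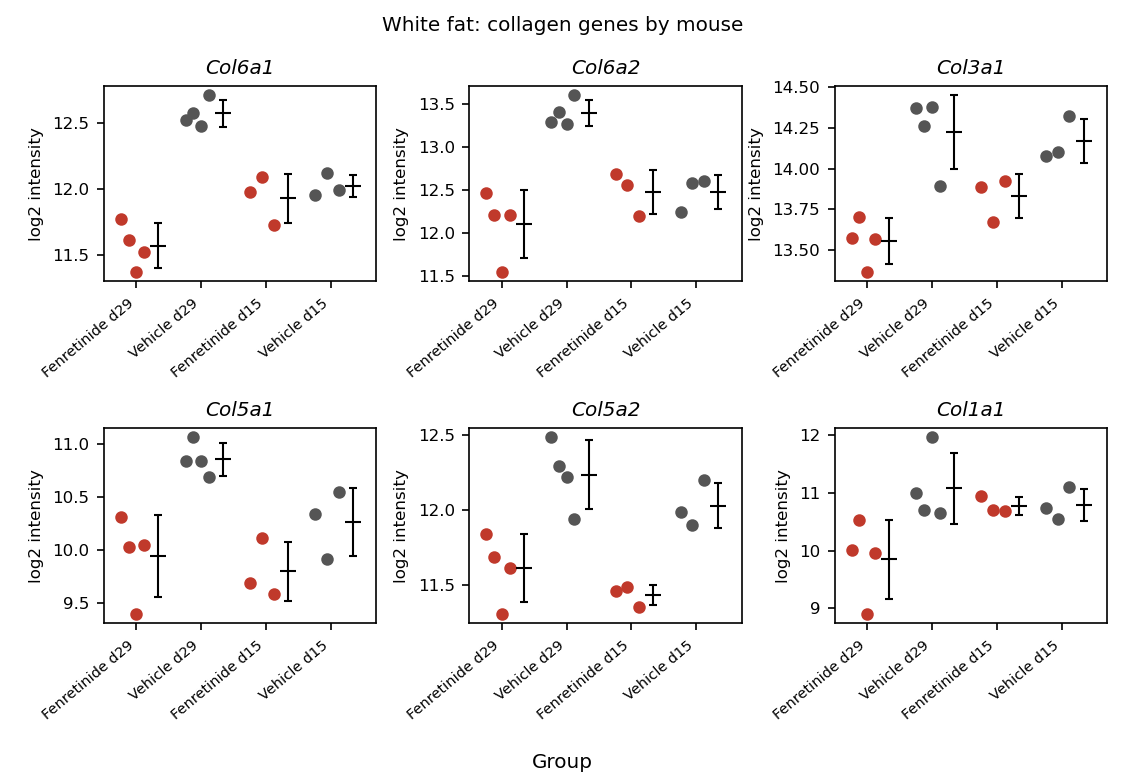
log2 intensity of 6 collagen genes in white fat, by group (points are mice; the cross bar is the mean ± SD; 4 mice per group on day 29 and 3 on day 15; each panel has its own scale). On day 29 every fenretinide mouse lies below every vehicle mouse in all 6 panels, while on day 15 Col6a1 and Col6a2 overlap.

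No basement membrane collagen was called. Col4a1 was at 14.08, 13.53, 13.75 and 13.69 in fenretinide mice, against 13.69, 13.91, 13.74 and 13.77 in vehicle mice, and the groups overlapped throughout. Its difference was -0.01 ± 0.11, with a 95% confidence interval from -0.26 to 0.23. Col4a2, its partner chain, was at 13.21, 12.67, 12.66 and 12.95, against 13.01, 13.25, 13.15 and 13.19 in vehicle mice (difference -0.28 ± 0.13, adjusted p = 0.342, limma). Col4a5, a chain of specialised basement membranes such as that of the kidney glomerulus, was at 8.06, 8.07, 8.15 and 7.96 in fenretinide mice, against 9.78, 9.77, 9.50 and 8.18 in vehicle mice. Vehicle mouse 86 lay beside the fenretinide mice, and the difference was -1.25 ± 0.35 (adjusted p = 0.0973). None of the 6 type IV chains was called, and their median change was -0.24.

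Col15a1 was at 10.85, 10.46, 10.13 and 10.90 in fenretinide mice, against 11.22, 11.19, 11.89 and 11.48 in vehicle mice, a difference of -0.86 ± 0.23 (adjusted p = 0.0873, limma). Col18a1 was at 10.15, 10.04, 10.09 and 10.29 in fenretinide mice, against 11.04, 10.79, 10.58 and 10.37 in vehicle mice, a difference of -0.55 ± 0.13 (adjusted p = 0.0567). Both multiplexins kept the groups apart without passing. Col8a1, a short-chain collagen of vessel walls, was at 7.88, 7.55, 7.26 and 7.52 in fenretinide mice, against 8.81, 7.88, 8.54 and 8.33 in vehicle mice, a difference of -0.84 ± 0.19 (adjusted p = 0.0502). None of the 9 fibril-associated, 3 short-chain, 4 transmembrane, 2 multiplexin or 2 other collagens was called.

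The calls of day 29 depended on the libraries used, Col6a1 and Col6a2 the least among the 5. With each mouse left out in turn, Col6a1 and Col6a2 were called in all 8 fits, with highest adjusted p-values of 0.00640 and 0.0291 (limma). Col3a1 was called in 3 of the 8, Col5a1 in 1 and Col5a2 in 2. Without fenretinide mice 93 and 95 and vehicle mice 85 and 86, which left 2 mice a group, 1 collagen was called, Col1a2 at -1.0 ± 0.14 (adjusted p = 0.0498, beside -0.58 with all mice), against 0.154% of all genes called and 0.104% called lower. Col6a1 then stood at -0.98 ± 0.16 (adjusted p = 0.0659), Col6a2 at -1.35 ± 0.28 (0.114) and Col3a1 at -0.84 ± 0.14 (0.0651). Groups were then apart for 20 collagens that were lower and 1 that was higher, against 22.5% and 18.1% of all genes.

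Marker lists of cell types were read beside these collagens. Fibroblast markers averaged 11.22 to 11.50 by library in fenretinide mice, against 11.02 to 11.89 in vehicle mice, with 2 of 7 called lower, Dpt and Lum, which are matrix genes themselves. White adipocyte markers averaged 13.33 to 13.91 in fenretinide mice, against 14.28 to 14.38 in vehicle mice, and Lep was lower by a log2 difference of -2.74. Brown adipocyte markers ranged over 7.86 to 11.76 and 6.64 to 9.86, skeletal muscle markers over 6.39 to 11.75 and 6.52 to 10.81, and hepatocyte markers over 6.95 to 11.98 and 7.01 to 11.09, in fenretinide and vehicle mice in that order. Endothelial markers averaged 9.80 to 10.53 in fenretinide mice, against 9.73 to 9.98 in vehicle mice, and macrophage markers 10.59 to 10.89, against 10.79 to 11.38. Lymphocyte markers averaged 8.16 to 8.48 in fenretinide mice, against 8.91 to 9.07 in vehicle mice, without overlap, and Ighm was lower by a log2 difference of -1.81. Of the hepatic stellate list, which averaged 8.59 to 8.88, against 8.05 to 8.60, Lrat, which stores retinol as esters, was higher by 2.14. With all mice, white adipocyte and lymphocyte lists thus separated the groups, and the other lists above overlapped. Without fenretinide mice 93 and 95 and vehicle mice 85 and 86, fibroblast markers averaged 11.22 to 11.50, against 11.66 to 11.89, without overlap. The hepatic stellate list (8.74 to 8.84, against 8.46 to 8.60) and the brown adipocyte list (7.86 to 9.48, against 6.64 to 6.76) were then also apart. With 2 mice a group, 40.6% of all genes were apart. The part of these cell types in the collagen result was not tested.

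Other genes of the collagen pathway were read from lists. Of 25 measured processing enzymes and chaperones, 2 were lower on day 29 and none higher: Crtap, a partner of prolyl 3-hydroxylase, fell by 0.58 (adjusted p = 0.0164, limma), and P4hb, a subunit of prolyl 4-hydroxylase, fell by 0.39 (adjusted p = 0.0444). Their list had a median of -0.17, with 20 of 25 below 0. Of 10 collagen receptors none was called, and the median was 0.05. Of 28 other matrix genes, 6 were lower and none higher, with a median of -0.38. Mfap4, a microfibril protein, fell by 1.60 (adjusted p = 0.00882), Fn1 (fibronectin) fell by 1.09, Dpt (dermatopontin) fell by 0.91 and Nid2, a basement membrane linker, fell by 0.88. Of 14 profibrotic signals, Smad3, a transducer of TGF-beta, was the only one called, higher by 0.66 (adjusted p = 0.0496). Among all genes, 0.929% were called lower and 0.412% higher on day 29. Calls of listed genes and cell markers, on either day, come from the fit with all mice. They were not repeated without the 4 libraries with the most foreign marker signal, where 0.154% of all genes were called on day 29.

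On day 15 the fenretinide changes were fewer and of both signs. Col8a2, a short-chain collagen of the corneal Descemet membrane and vessel walls, was called higher and Col5a2 lower (limma), 2 of 42 collagens, against 3.95% of all genes, 3.27% higher and 0.682% lower. Col8a2 was at 7.53, 7.81 and 6.25 in fenretinide mice, against 5.33, 5.52 and 5.03 in vehicle mice. All 3 fenretinide mice lay above, mouse 59 the least, and the rise was 1.90 ± 0.43 log2 units, 3.74-fold (adjusted p = 0.0262). Col5a2 was at 11.46, 11.48 and 11.35 in fenretinide mice, against 11.99, 11.90 and 12.20 in vehicle mice, and fell by 0.60 ± 0.15 (adjusted p = 0.0457). With 1 mouse left out in turn, Col8a2 was called in 1 of 6 fits and Col5a2 in 0 of 6. Neither was called when the 4 libraries with the most foreign marker signal on day 29 were left out of the shared fit, in which 3.19% of all genes were called and 7 collagens had an unadjusted p under 0.05, against 19.8% of all genes.

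Col4a4, a chain of the specialised type IV network, was at 9.68, 9.34 and 8.13 in fenretinide mice of day 15, against 7.56, 7.72 and 7.03 in vehicle mice, a difference of 1.61 ± 0.43 (adjusted p = 0.0546, limma). Its groups did not overlap. Groups were apart for 9 collagens on day 15, 2 higher and 7 lower, against 12.1% of all genes higher and 15.8% lower. Col6a1 was at 11.98, 12.09 and 11.73 in fenretinide mice, against 11.96 to 12.12 in the 3 vehicle mice, and Col6a2 at 12.68, 12.56 and 12.19, against 12.25, 12.59 and 12.60. Both overlapped, with differences of -0.09 and 0.00. Col3a1 was at 13.89, 13.67 and 13.92, against 14.08, 14.10 and 14.32 in vehicle mice (difference -0.34, adjusted p = 0.194), so its groups were apart without a call.

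Several marker lists separated the same libraries on day 15. The epithelial list averaged 9.96 to 10.94 in fenretinide mice, against 6.47 to 7.45 in vehicle mice, and 5 of its 7 genes were called higher, among them Dsp (desmoplakin) by 5.19 and Krt8 by 3.28. Endothelial markers averaged 10.22 to 10.48 in fenretinide mice, against 9.53 to 9.93 in vehicle mice, with Emcn called higher by 0.94. Hepatic stellate markers averaged 8.71 to 9.68, against 8.15 to 8.44, with Lrat called higher by 1.60, and macrophage markers 10.88 to 10.98, against 11.04 to 11.14. These ranges separated all 3 fenretinide libraries from the vehicle ones. Agent and the content of cells bearing these markers thus cannot be told apart for Col8a2 and Col4a4. Of the 5 hepatic stellate genes only Lrat was called, and whether the shift of that list reflects a cell type was not tested. Smooth muscle markers averaged 9.67 to 13.73 in fenretinide mice, highest in mouse 59, against 9.23 to 9.84 in vehicle mice. Fibroblast markers averaged 11.47 to 11.56, against 11.50 to 11.70. None of the 25 processing enzymes, 10 receptors and 28 other matrix genes was called on day 15, and of the profibrotic signals Tgfb2 was higher by 0.80 (adjusted p = 0.0393, limma).

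**Figure D4:**
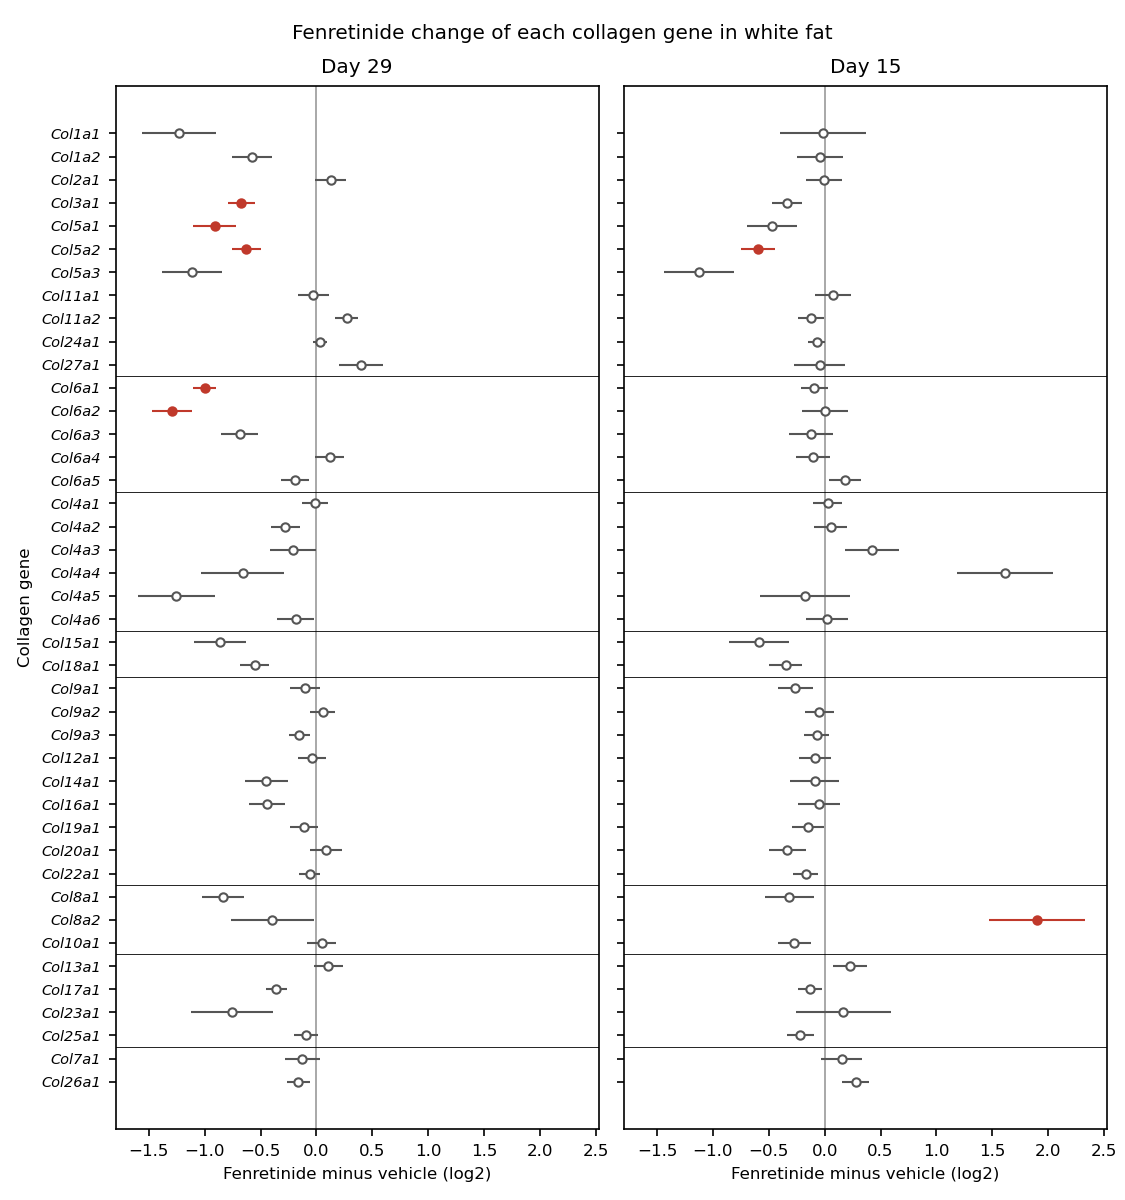
Fenretinide minus vehicle in white fat for each collagen, day 29 at the left and day 15 at the right (log2 difference; bars are 1 SE; filled points have an adjusted p under 0.05). Col6a1, Col6a2, Col6a3, Col3a1 and the 3 type V chains lie below 0 on day 29, with Col6a2 at -1.29, while the type VI chain Col6a4 lies at 0.12, and Col8a2 at 1.90 is the highest point of day 15.

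The fenretinide difference itself changed between days for both main type VI chains. The difference of day 29 minus that of day 15 was -0.91 ± 0.16 for Col6a1 (adjusted p = 0.0121, limma; interval -1.25 to -0.57) and -1.29 ± 0.27 for Col6a2 (adjusted p = 0.0385; interval -1.88 to -0.70). These were 2 of 42 collagens, both lower, against 1.33% of all genes called and 1.27% called lower. The change for Col5a2 was -0.03, and it was not shown to differ between days for Col3a1, Col5a1 or Col1a1. Col6a1 kept its call in all 14 fits with 1 mouse left out, and Col6a2 in 3 of 14. Without the 4 libraries with the most foreign marker signal none was called, with Col6a1 at -0.89 (adjusted p = 0.140) and Col6a2 at -1.35 (adjusted p = 0.206). There, 0.5% of all genes were called, and 11 collagens had an unadjusted p under 0.05, against 12.8% of all genes.

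The vehicle mice are set against each other by day beside this. Vehicle mice of day 29 had Col6a1 at 12.48 to 12.71, against 11.96 to 12.12 in vehicle mice of day 15, and Col6a2 at 13.27 to 13.61, against 12.25 to 12.60. Neither gene overlapped between the vehicle groups, with differences of 0.55 ± 0.11 and 0.92 ± 0.19 (adjusted p = 0.334 for both, limma). None of the 42 collagens and 0.0% of all genes were called between the vehicle groups; 6 collagens, all higher, had an unadjusted p under 0.05, against 9.99% of all genes. Vehicle groups were apart for 9 collagens, 8 higher and 1 lower on day 29, against 7.13% of all genes higher and 4.5% lower. Without vehicle mice 85 and 86, none was called either (0.0% of all genes), 6 collagens had an unadjusted p under 0.05 against 6.44% of all genes, and groups were apart for 14 collagens higher and 4 lower, against 16.1% and 12.1% of all genes. The day comparisons and the treated comparisons share these vehicle libraries.

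In brown fat, 5 of 11 fibrillar and 1 of 5 type VI chains were lower in vehicle mice of day 29 than of day 15 once troglitazone mouse 95 and vehicle mouse 82 were left out. With all libraries, none of the 42 collagens was called between the vehicle days (0.0% of all genes). There, 5 collagens, all lower, had an unadjusted p under 0.05, against 2.19% of all genes, and Col1a1 alone had groups apart, against 0.269% of all genes lower. Without the odd pair, 6 collagens were called, all lower, among 17 called genes or 0.0934% of all genes (limma). They were Col1a1, Col1a2, Col3a1, Col5a1, Col5a2 and Col6a2. This comparison was added after the data were seen.

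Col1a1 was at 9.49, 10.57, 8.87 and 10.43 in the kept vehicle mice of day 29 and 11.54 in mouse 82, against 11.85, 11.98, 13.55, 11.76 and 11.60 on day 15. All day 29 mice lay below all day 15 mice, and the fall was 2.31 ± 0.37 log2 units without the odd pair (adjusted p = 0.0288, limma), or a difference of -1.97 ± 0.42 with them (adjusted p = 0.997). Col1a2 was at 12.04, 12.52, 11.60 and 12.56 in the kept mice and 13.78 in mouse 82, against 13.20, 13.25, 13.96, 13.28 and 13.19 on day 15, and fell by 1.19 ± 0.19 without the pair. Mouse 82 alone overlapped day 15. Col3a1 was at 13.15, 13.47, 12.92 and 13.49 and in mouse 82 at 14.30, against 13.89, 13.89, 13.98, 13.93 and 13.89 on day 15, and fell by 0.66 ± 0.10 without the pair (adjusted p = 0.0264).

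Col5a1, Col5a2 and Col6a2 had the same order without mouse 82, whereas Col5a3 at -0.20 ± 0.15 and Col6a4 at 0.11 ± 0.07 overlapped. Col5a1 was at 8.65 to 9.33 in the kept mice of day 29 and 10.56 in mouse 82, against 9.68 to 9.98 on day 15, and fell by 0.83 ± 0.15 (adjusted p = 0.0473, limma). Col5a2 was at 9.90 to 10.84 and 12.02 in mouse 82, against 11.07 to 11.49, and fell by 0.86 ± 0.15 (adjusted p = 0.0390). Col6a2 was at 11.61 to 12.03 and 13.23 in mouse 82, against 12.23 to 12.39, and fell by 0.50 ± 0.09 (adjusted p = 0.0390). Groups were apart for 8 collagens that were lower and 1 that was higher, the minor fibrillar Col27a1, against 1.6% of all genes lower and 0.693% higher. Col6a1 had a difference of -0.58 ± 0.12 (adjusted p = 0.0800), while Col4a1 (-0.13), Col4a2 (-0.13), Col15a1 (-0.14) and Col18a1 (-0.09) lay near 0.

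Fibroblast markers averaged 9.69 to 10.57 in the kept vehicle mice of day 29, against 10.62 to 10.94 on day 15. Macrophage markers averaged 8.90 to 10.12, against 10.12 to 10.61, and skeletal muscle markers 11.93 to 14.42, against 10.20 to 13.91. The fibroblast ranges did not overlap, the macrophage ranges met with a slight overlap and the muscle ranges overlapped widely. The part of fibroblast and macrophage content in the collagen result was not tested.

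**Figure D5:**
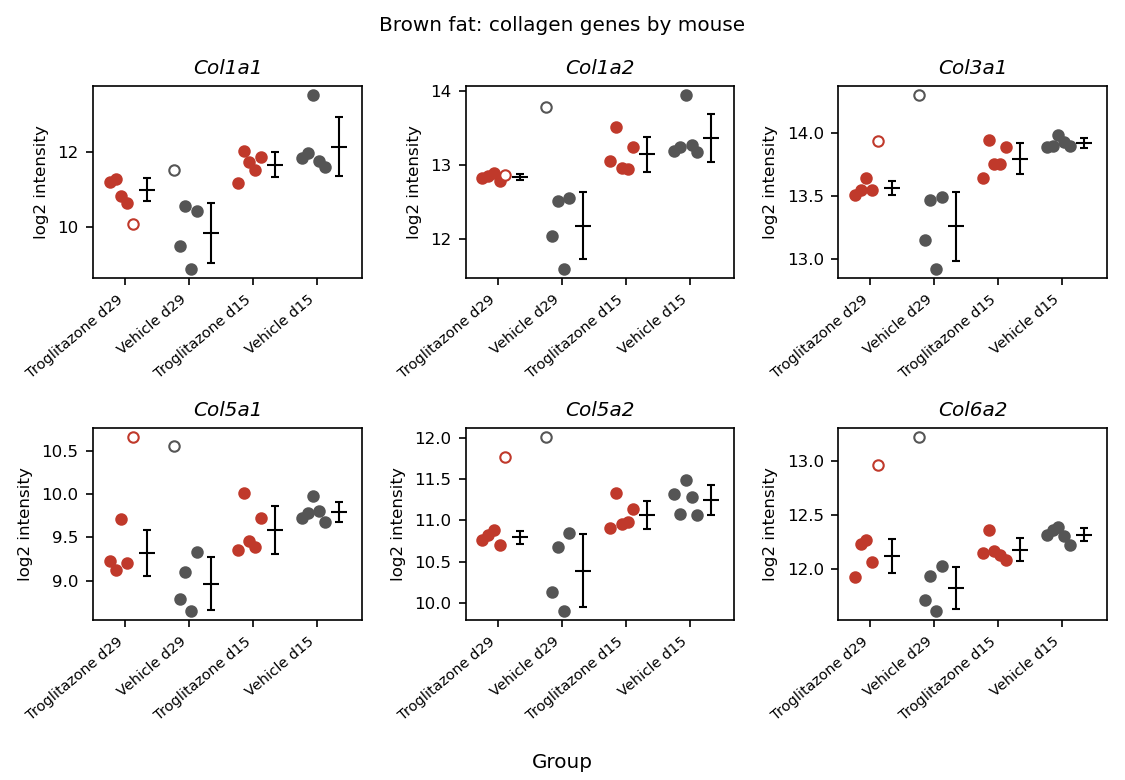
log2 intensity of 6 collagen genes in brown fat, by group (points are mice, 5 per group; open circles are troglitazone mouse 95 and vehicle mouse 82, left out of the cross bars, which are mean ± SD; each panel has its own scale). The kept vehicle mice of day 29 lie below those of day 15 in all 6 panels, and mouse 82 lies above the rest of its group.

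Troglitazone did not pass the test for any collagen in brown fat. On day 29 none of 42 was called (0.055% of all genes, limma), and no collagen had an unadjusted p under 0.05, against 6.01% of all genes. The changes ran from -0.38 to 0.62, led by Col1a1 at 0.62 ± 0.42 with an interval from -0.26 to 1.51, Col8a2 at -0.38 and Col1a2 at 0.34. No collagen separated the groups, against 0.759% of all genes. On day 15 none was called either (0.0605% of all genes), none had an unadjusted p under 0.05 (3.75% of all genes), no groups were apart (3.25% of all genes), and the changes ran from -0.48 for Col1a1 to 0.15, with Col11a1 at -0.35 and Col8a2 at -0.27. Vehicle mouse 43 of day 15 lay far above its group for Col1a1 (13.55) and Col8a2 (5.99). The highest Col11a1 value of vehicle brown fat, on day 15, was 7.05, against a median of 4.81. With the odd pair left out of the shared fit, day 15 had no call (0.951% of all genes) and 1 collagen at an unadjusted p under 0.05, against 9.66% of all genes. The Col6a1 intervals were -0.38 to 0.63 on day 29 and -0.72 to 0.29 on day 15.

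Without the odd pair, type I collagen was higher after troglitazone on day 29 without passing the test. Col1a1 was at 11.20, 11.29, 10.82 and 10.64 in the kept troglitazone mice, against 9.49, 10.57, 8.87 and 10.43 in the kept vehicle mice. The groups did not overlap, and the difference was 1.15 ± 0.39 (adjusted p = 0.163, limma). Col1a2 was at 12.82, 12.85, 12.90 and 12.79, against 12.04, 12.52, 11.60 and 12.56, a difference of 0.66 ± 0.20 (adjusted p = 0.115). The same kept vehicle mice lay below the vehicle mice of day 15 for Col1a1 and Col1a2, so the comparison of vehicle days and this one share these libraries. Groups were apart for 4 collagens, all higher, against 3.53% of all genes higher. No collagen was called, with 1.09% of all genes called and 12 collagens at an unadjusted p under 0.05, against 15.6% of all genes. Fibroblast markers averaged 10.43 to 10.66 in the kept troglitazone mice, against 9.69 to 10.57 in the kept vehicle mice.

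The change of the troglitazone difference between days, and between brown fat and liver on each day, was called for no collagen. Between days in brown fat, 0.0% of all genes were called, and no collagen had an unadjusted p under 0.05, against 1.14% of all genes. Without the odd pair, 0.0% of all genes were again called, and 9 collagens, all with a higher difference on day 29, had an unadjusted p under 0.05, against 4.82% of all genes. Between tissues, 0.0165% of all genes were called on day 29 and 0.022% on day 15, with 1 and 0 collagens at an unadjusted p under 0.05, against 5.4% and 3.19% of all genes. Without the odd pair these became 0.269% and 0.115% of all genes called, with 7 and 2 collagens at an unadjusted p under 0.05, against 8.95% and 6.28% of all genes. Col1a2 then led on day 29, with a troglitazone difference larger in brown fat than in liver by 0.84 (adjusted p = 0.0963, limma).

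In liver, where stellate cells and portal fibroblasts are the main collagen producers and hepatocytes make type XVIII, neither agent moved a collagen past the test. For troglitazone, 0 of 42 were called on day 29 (0.115% of all genes, limma), with Col18a1 at -0.24 (adjusted p = 0.474) the only one at an unadjusted p under 0.05, against 10.2% of all genes. The largest changes were those of Col4a2 at -0.30 ± 0.17, Col3a1 at 0.27 ± 0.16 and Col6a1 at 0.25 ± 0.16. On day 15, 0 of 42 were called (0.022% of all genes), and Col7a1, the anchoring fibril collagen, at 0.27, Col4a3 at 0.23 and Col9a1 at 0.23 had an unadjusted p under 0.05, against 4.3% of all genes (adjusted p = 0.957 for each). All changes lay between -0.30 and 0.27 on the 2 days.

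Elmiron likewise gave no call. On day 29, 0 of 42 collagens were called (0.0055% of all genes, limma), with Col6a5 at -0.30 and Col7a1 at -0.22 at an unadjusted p under 0.05, against 8.3% of all genes, and a lowest adjusted p of 0.530. Col3a1 was at 7.86, 8.78, 9.59, 9.60 and 9.65 in Elmiron mice of day 29, against 8.98, 9.30, 9.63, 9.59 and 9.01 in vehicle mice, so that 2 Elmiron mice, 91 and 92, lay below the vehicle range. On day 15, 0 of 42 were called (0.0% of all genes), and Col9a1 at -0.32 (adjusted p = 0.878) was the only one of them at an unadjusted p under 0.05, against 5.48% of all genes. The difference itself was not called between days for any collagen with either agent in liver (0.0% of all genes each). Troglitazone had 1 collagen at an unadjusted p under 0.05, against 7.49% of all genes, and Elmiron none, against 5.39%.

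The liver values of the type VI marker chain show how close the groups were. Col6a1 ranged from 7.71 to 7.86 in troglitazone mice, against 7.11 to 8.01 in vehicle mice on day 29, and from 7.15 to 7.98, against 7.26 to 7.80, on day 15. In the Elmiron study it ranged from 7.02 to 7.42 in Elmiron mice, against 6.90 to 7.67 in vehicle mice on day 29, and from 6.82 to 7.91, against 7.13 to 7.93, on day 15. The groups overlapped in all 4 comparisons. Its intervals were -0.07 to 0.57 and -0.34 to 0.30 for troglitazone on days 29 and 15, and -0.41 to 0.33 and -0.50 to 0.23 for Elmiron. A 2.0-fold change of Col6a1, the size seen with fenretinide in white fat on day 29, lay outside all 4 intervals. No collagen separated treated from vehicle livers in any of the 4 comparisons, against 1.07% and 2.09% of all genes for troglitazone and 1.43% and 1.06% for Elmiron on days 29 and 15.

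Vehicle livers of the Elmiron study were lower in 9 collagens on day 29 than on day 15 at an unadjusted p under 0.05, and none was called (0.0% of all genes, limma). The unadjusted share over all genes was 5.42%. They were Col14a1 at -0.70 ± 0.17 (adjusted p = 0.359), Col4a2 at -0.75 ± 0.20 (0.418), Col4a1 at -0.64 (0.449), Col3a1 at -0.58 and 5 others, Col5a1, Col5a2, Col1a1, Col1a2 and Col6a2. Groups were apart for 3 of them, all lower, against 0.594% of all genes. Vehicle livers of the troglitazone study had 4 collagens higher and 2 lower on day 29 at an unadjusted p under 0.05, against 6.51% of all genes, again with none called (0.0% of all genes). Col4a5 alone had groups apart there, lower on day 29, against 0.572% of all genes lower. With all libraries, the processing enzymes, receptors, other matrix genes and profibrotic signals held no called gene in any brown fat or liver comparison of an agent with vehicle.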

How the data were processed

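Affymetrix arrays measured total RNA of white fat, brown fat and liver. The deposited values are signal intensities made with RMA, per the submitters' processing notes; the RMA version and the chip definition: not given in the sources used here. Of 45101 probe sets, 34945 carried 1 gene symbol and 82 of these were collagens. The deposited intensities were turned into log2 values here, and each gene's brightest probe set was kept. limma 3.58.1 in R 4.3.3 fitted 1 mean per group within each tissue and study (8 groups for brown fat against liver). p-values were adjusted by Benjamini-Hochberg over all 18193 genes, with 0.05 as the threshold, and the fit was tested on simulated data. Replicates are mice, numbered in the labels. The number of arrays limits the precision. Brown fat and liver of 15 mice were paired by animal number, and the deviations of a pair correlated at -0.135 to 0.151. Tables and figures used Python 3.11.15, with matplotlib 3.10.9, pandas 2.3.3 and numpy 2.4.6.

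The 42 members, the lists and the tests were chosen with earlier results of these data known. Named outside the collagens were at most 4 called genes per list and comparison and defining cell markers. The plan among the collagens was to name every called gene, or else the 3 with the largest change, and 11 main chains. For brown fat against liver, only some of the 32 called collagens were named. In some comparisons without a call, fewer than 3 changes were named. Alternatives were quantile normalization, only genes above the median mean signal, the mean of probe sets, only the groups compared, each mouse left out, a block for the mouse and, added after seeing the data, leaving out odd libraries. Probe sets with several symbols or none (932 and 9160) and 64 control sets were left out.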

Additional observations from a re-analysis of the deposited data

Results flagged for a closer look

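Of 168 sets of 4 or 5 mice examined for 1 far value, 21 held one, where chance gives about 1 in 20, and 11 of the 21 came from brown fat mouse 95 or 82. Troglitazone mouse 95 of day 29 stood apart in brown fat for Col5a2 at 11.77, Col4a1 at 13.72, Col4a2 at 13.16, Col15a1 at 11.09, Col18a1 at 10.32 and Col8a2 at 5.37. Vehicle mouse 82 of day 29 stood apart for Col6a2 at 13.23, Col4a1 at 13.61, Col4a2 at 12.97, Col18a1 at 10.80 and Col8a2 at 7.47. These are the 2 brown fat libraries with low Ucp1, and the cause was not tested.

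Troglitazone mouse 52 of day 15 was far above its brown fat group for Col18a1 at 9.23. Vehicle mouse 43 of day 15 was far above its brown fat group for Col1a1 at 13.55, Col1a2 at 13.96 and Col8a2 at 5.99. In liver of the Elmiron study, Elmiron mouse 54 of day 15 had Col3a1 at 10.18, Elmiron mouse 55 of day 15 had Col5a1 at 7.62, Elmiron mouse 91 of day 29 had Col4a2 at 7.85 and vehicle mouse 46 of day 15 had Col15a1 at 7.44. In liver of the troglitazone study, troglitazone mouse 94 of day 29 had Col1a2 at 9.45 and troglitazone mouse 54 of day 15 had Col4a1 at 9.27. Each was the far value of its group of 5.

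The fenretinide difference in white fat on day 29 minus that on day 15 was -0.91 for Col6a1 and -1.29 for Col6a2, both called by limma on the difference itself.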

How the results depend on the processing

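For white fat on day 29, where 5 collagens were called, the count was 8 with the mean of probe sets, 2 with only the groups compared in the fit, 1 without the 4 libraries with the most foreign marker signal and 2 to 7 with each mouse left out. On day 15, where 2 were called, it was 1 among genes above the median signal, 0 with only the groups compared, 0 without the 4 libraries and 0 to 2 with each mouse left out. For the change of the fenretinide difference between days, with 2 called, it was 1 with the mean of probe sets, 0 without the 4 libraries and 1 to 4 with each mouse left out. For brown fat vehicle mice of day 29 against day 15, with none called, it was 6 without the odd pair and 0 to 3 with each mouse left out, reaching 3 without vehicle mouse 82. For brown fat against liver, with 32 called, it was 15 among genes above the median signal, which leaves fewer collagens tested, and 30 to 33 with each mouse left out. The block for the mouse gave 32 again for brown fat against liver and changed no other count there. Causes of the other changes were not tested. The 210 changes of single collagens followed gave 3629 values under the alternatives. Of these values, 55 were no longer called, all from the 9 called changes in white fat, 15 were newly called, and no called change turned its direction. The groups of 3 to 5 mice and the dim signal of 27 collagens limit what could be detected.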
